A study of Homo sapiens with 8 samples.

Results

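Fibrillar collagens are the proteins that assemble into the striated fibres of the extracellular matrix, and their genes were taken from the RNA-seq table by symbol. The list held 10 genes of the 47591 in the table: COL1A1, COL1A2, COL2A1, COL3A1, COL5A1, COL5A2, COL5A3, COL11A1, COL24A1 and COL27A1. Polyadenylated RNA had been sequenced from SH-SY5Y, a human neuroblastoma (NB) cell line whose cells resemble sympathetic neuroblasts. The G2 line (3 libraries) carried CRISPR/Cas9 and a guide against PRPF40B, a splicing factor associated with the U1 small nuclear ribonucleoprotein. The SCR line (3 libraries) was made with a control guide, and the WT line (2 libraries) was not modified. G2 was selected with puromycin and grown from an individual colony, so that it stands for 1 clone, and whether SCR was also grown from a colony is not stated. Both lines were kept in puromycin, and effects of the guide, the selection and the clone cannot be told apart. The labels call the libraries of a line biological replicates but do not say whether they came from separate cultures. The p-values measure only the spread between these libraries.

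Each fibrillar collagen chain is made as a procollagen, and 3 chains wind into a triple helix in the endoplasmic reticulum. Prolines and lysines of the chains are hydroxylated there, chaperones hold the folded helix, and proteases outside the cell cut off its ends so that fibrils can form and be cross-linked. Type I collagen holds chains of COL1A1 and COL1A2, type III only chains of COL3A1, and types V and XI join type I and type II fibrils and limit their width. Type II (COL2A1) is the main collagen of cartilage, and COL24A1 and COL27A1 encode minor fibrillar chains. In the body, types I, III and V are made mainly by fibroblasts and other mesenchymal cells, and NB lines vary in how much of this mesenchymal character they show.

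The values are normalized counts, that is, counts adjusted for differences in sequencing depth between libraries, and were not scaled to gene length. Recovered totals ran from 59804395 to 81080747 counts per library, and most small counts were multiples of 3 (71.3 to 75.6% of the counts from 1 to 30), for a reason that is not known. If 3 counts stand for 1 fragment, 9 recovered counts are 3 fragments, and this was taken as the floor of detection. Genes of ribosomal RNA took 4.75 to 4.96% of the WT libraries against 0.384 to 0.587% of the others. When libraries were scaled to the same total instead, the median log2 difference of all genes was 0.19 in G2/WT and 0.29 in SCR/WT, and differences from WT are to be read against this. PRPF40B had 840, 841 and 918 normalized counts in G2, 1686, 1672 and 1669 in SCR, and 1972 and 1668 in WT. All 3 G2 libraries lay below the 5 controls, by 1.00 on the log2 scale (exact two-sided permutation test, p = 0.018 with 56 groupings, the smallest p this design allows).

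The promoters of the members were read where the reference held them, to show what the sequence before the start of each gene contains. RefSeq windows (GRCh38.p14) matched 5 of the 10 members, COL5A1, COL27A1, COL5A3, COL11A1 and COL24A1, and COL1A1, COL1A2, COL2A1, COL3A1 and COL5A2 were not matched. Those of COL5A1 and COL27A1, which were higher in G2 than in SCR, and of COL5A3, which was not, are printed 5′ to 3′ on the strand of the gene as the 250 bases before the start. Capitals mark matches on either strand to the GC box GGGCGG, bound by SP1-like factors, or to the CCAAT box CCAAT, bound by the NF-Y complex. The reference held 2 starts each for COL5A1 and COL24A1, and only the window of the first listed start was read. COL5A1 lies on chromosome 9, plus strand, and its window is chr9:134641553-134641802. COL27A1 lies on the same strand of chromosome 9, with the window chr9:114155287-114155536. COL5A3 lies on the minus strand of chromosome 19, with the window chr19:10010505-10010754.
COL5A1: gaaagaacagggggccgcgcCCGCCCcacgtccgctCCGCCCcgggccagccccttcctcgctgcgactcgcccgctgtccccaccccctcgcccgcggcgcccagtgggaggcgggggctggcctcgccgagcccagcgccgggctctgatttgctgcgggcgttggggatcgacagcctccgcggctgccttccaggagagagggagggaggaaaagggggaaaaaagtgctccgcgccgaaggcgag
COL27A1: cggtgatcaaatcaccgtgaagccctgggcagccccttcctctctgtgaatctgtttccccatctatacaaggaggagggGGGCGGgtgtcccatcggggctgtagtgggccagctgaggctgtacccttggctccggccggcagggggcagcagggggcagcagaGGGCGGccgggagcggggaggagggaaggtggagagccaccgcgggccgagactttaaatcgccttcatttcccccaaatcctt
COL5A3: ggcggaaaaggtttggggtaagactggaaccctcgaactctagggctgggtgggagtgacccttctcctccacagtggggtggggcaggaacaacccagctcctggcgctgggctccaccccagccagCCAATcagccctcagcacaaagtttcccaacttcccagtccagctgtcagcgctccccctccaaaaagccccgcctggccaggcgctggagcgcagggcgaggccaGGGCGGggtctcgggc

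The windows of COL5A1 and COL27A1 each held 2 GC boxes, that of COL5A3 held 1, that of COL11A1 held 3 and that of COL24A1 none. Of all 35116 windows of the same length, 42.6% held at least 1 such match. A CCAAT box was found in the windows of COL5A3 and COL11A1 and in 32% of all windows. None of the 5 windows held the TATA box TATAAA (10.7% of all windows) or the AP-1 element TGANTCA (6.57%), and the SMAD element CAGAC (38.0%) was found only in that of COL11A1, directly next to the CCAAT box. The share of G and C was 74% in COL5A1, 64.4% in COL27A1, 66% in COL5A3, 68.8% in COL11A1 and 60.4% in COL24A1, against a median of 58% over all windows.

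The summed level of the fibrillar collagen genes was far higher in G2 than in either control line. Summed over the 10 members, the libraries held 57213 ± 800 normalized counts in G2 (SD, n = 3), 5651 ± 67.6 in SCR (n = 3) and 1401 ± 43.1 in WT (n = 2). The sum of G2 was 10.1 times that of SCR and 40.8 times that of WT, and that of SCR was 4.03 times that of WT. Its share of all normalized counts was 0.0877% in G2, 0.0092% in SCR and 0.0019% in WT. Libraries of a line differed by far less than the lines did. In a bulk sample, fewer cells of a type and less RNA per cell cannot be told apart.

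A gene was called where its fold change was at least 1.5 and its Benjamini-Hochberg adjusted p at most 0.05 in limma, over the 18947 genes whose mean reached 10. The mean was under 10 for COL5A2, COL11A1 and COL24A1, and these were not tested. In G2/SCR, 5 of the 7 members tested were higher in G2 (COL1A1, COL1A2, COL3A1, COL5A1 and COL27A1), none was lower, and COL2A1 and COL5A3 did not pass. Of all genes tested, 25% were called there, 14.3% as higher and 10.7% as lower. The same 5 members were called by edgeR and by DESeq2 on the recovered counts. In G2/WT, 6 members were higher in G2, COL2A1 being added, and COL5A3 was lower, against a background of 28.2% called, with 16.9% higher and 11.3% lower. COL5A3 reached the mean of 10 only through WT (28.3, against 6.59 in G2 and 8.59 in SCR). COL2A1 reached it only through G2 and SCR (53.7 and 35.1, against 4.96 in WT). Their calls against WT are therefore no separate support. In SCR/WT, COL3A1, COL5A1, COL27A1 and COL2A1 were higher in SCR and none was lower, where 13.8% of all genes were called, 8.95% as higher and 4.83% as lower. The members tested had a median log2 difference of 0.85 in G2/SCR, 2.86 in G2/WT and 0.68 in SCR/WT, and that of all genes tested −0.01, 0.00 and 0.01. The 3 comparisons share their libraries, G2/SCR and SCR/WT through SCR, and are given side by side.

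**Figure D1:**
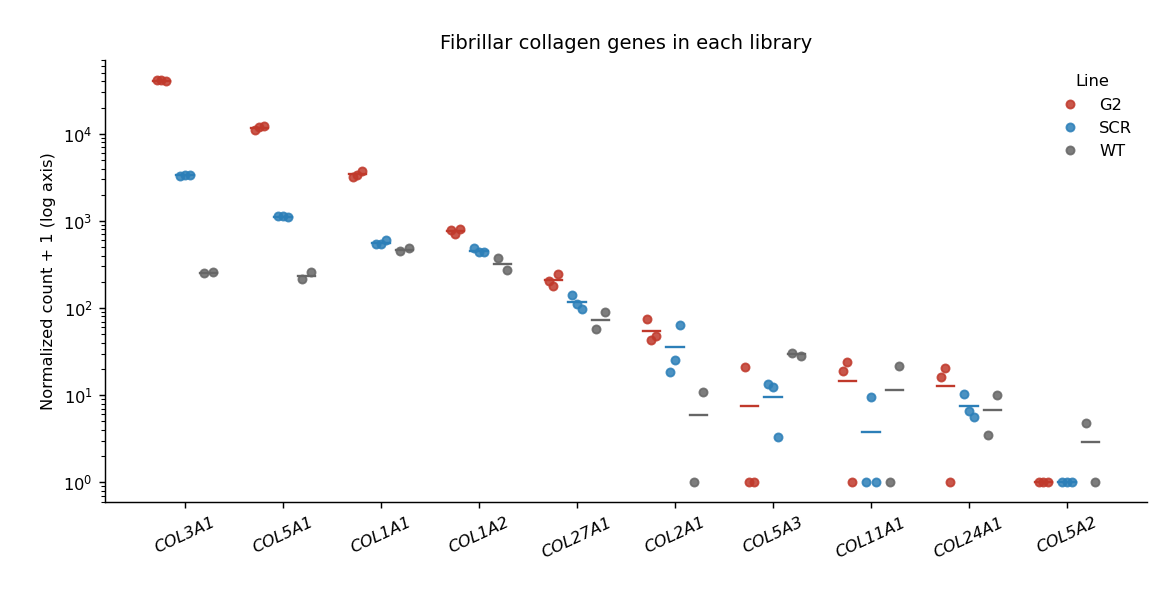
Normalized count plus 1 (log axis) of the 10 fibrillar collagen genes in each of the 8 libraries, where points are libraries and bars are line means. COL3A1, COL5A1 and COL1A1 lie highest in the 3 G2 libraries without overlap, COL1A2 and COL27A1 differ less between lines, and COL5A2 is listed at 0 in 7 of 8 libraries.

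COL3A1 encodes the single chain of type III collagen and had the highest level per kilobase of the members in G2 and SCR. It lies on chromosome 2 (188974373 to 189012746, plus strand, hg38). Its values were 41085, 41625 and 40156 normalized counts in G2, 3242, 3410 and 3390 in SCR, and 248 and 258 in WT. The lines formed separate steps that did not overlap, with G2 highest and WT lowest. On the log2(normalized count + 1) scale G2 exceeded SCR by 3.61 (SE 0.05, adjusted p = 9.6e-13) and WT by 7.33 (SE 0.06, adjusted p = 1.9e-15). SCR in turn exceeded WT by 3.72 (SE 0.06, adjusted p = 5.4e-12), a difference between the controls about as large as that between G2 and SCR. Per kilobase of exon, COL3A1 ranked between 455 and 469 among 18488 protein-coding genes in G2, between 4208 and 4378 in SCR, and between 10434 and 10455 in WT.

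COL5A1 encodes the alpha 1 chain of type V collagen, which is found inside type I fibrils and starts their assembly. The gene lies on chromosome 9 (134641803 to 134844843, plus strand). It had 11080, 12098 and 12172 normalized counts in G2, 1127, 1144 and 1095 in SCR, and 212 and 256 in WT. The order of the lines was that of COL3A1, again with no overlap. G2 exceeded SCR by 3.39 on the log2 scale (SE 0.08, adjusted p = 2.0e-11), or 10.5-fold, and WT by 5.65 (SE 0.09, adjusted p = 6.7e-13). The difference SCR/WT was 2.26 (SE 0.09, adjusted p = 1.1e-08). Genes that overlap COL5A1 reached at most 32.8 normalized counts in any library.

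COL1A1, which encodes the alpha 1 chain of type I collagen, the commonest collagen of the body, set G2 apart from both controls. The gene lies on chromosome 17 (50183289 to 50201632, minus strand). Its values were 3163, 3331 and 3748 normalized counts in G2, 541, 540 and 602 in SCR, and 448 and 487 in WT. The SCR and WT libraries lay close to each other, and the lowest SCR value was above the highest WT value. The log2 difference was 2.60 in G2/SCR (SE 0.08, adjusted p = 2.6e-10) and 2.86 in G2/WT (SE 0.10, adjusted p = 3.4e-10). In SCR/WT it was 0.26 (SE 0.10, 95% confidence interval 0.05 to 0.47, adjusted p = 0.051), below the fold threshold.

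COL1A2 encodes the partner chain of COL1A1 in type I collagen and had a smaller fold. It lies on chromosome 7 (94394561 to 94431232, plus strand) and had 776, 716 and 807 normalized counts in G2, 486, 438 and 434 in SCR, and 370 and 274 in WT. No library of G2 overlapped with a control, and the difference G2/SCR was 0.76 on the log2 scale (SE 0.12, adjusted p = 1.7e-04) and G2/WT 1.26 (SE 0.13, adjusted p = 6.2e-06). The 95% confidence interval of its G2/SCR difference, 0.51 to 1.01, lay below that of COL1A1, 2.42 to 2.79. SCR exceeded WT by 0.50 (SE 0.13, adjusted p = 0.0099), under the fold threshold. The value depended on which WT library was kept, at 0.72 and past the threshold without WT replicate 1 and 0.29 (adjusted p = 0.072) without WT replicate 2, and it was 0.78 when libraries were scaled to the same total.

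The levels of both type I chains therefore stood in another ratio in G2 than in the controls. The ratio of COL1A1 to COL1A2 in normalized counts was 4.08, 4.65 and 4.64 in the G2 libraries, 1.11, 1.23 and 1.39 in SCR, and 1.21 and 1.78 in WT. The G2 values lay above all 5 controls, while SCR and WT overlapped. Per kilobase of exon the mean ratio was 5.35 ± 0.40 in G2 (SD, n = 3), 1.49 ± 0.17 in SCR (n = 3) and 1.79 ± 0.48 in WT (n = 2). Per kilobase of the canonical transcript, in which the union of all exons is replaced by 1 isoform, it was 3.82, 1.07 and 1.28, so that the level of the ratio depends on the length used but its 3.58-fold difference between G2 and SCR does not.

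COL27A1, a minor fibrillar chain known from developing cartilage, rose by about as much as COL1A2 in G2/SCR. It lies on chromosome 9 (114155537 to 114312511, plus strand). Its values were 203, 177 and 243 normalized counts in G2, 139, 110 and 96.7 in SCR, and 55.9 and 89.4 in WT. The lines did not overlap. The log2 difference was 0.85 in G2/SCR (SE 0.21, adjusted p = 0.0053), 1.53 in G2/WT (SE 0.24, adjusted p = 1.7e-04) and 0.68 in SCR/WT (SE 0.24, adjusted p = 0.042). The call in SCR/WT was lost in 8 of 19 alternatives, among them leaving out any of 4 libraries, eBayes without trend and the replicate block. Without WT replicate 1 the difference was 0.35.

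COL2A1, the chain of type II collagen, was low in all lines. The gene lies on chromosome 12 (47972967 to 48004476, minus strand) and had 73.4, 41.6 and 46.2 normalized counts in G2, 17.3, 24.4 and 63.5 in SCR, and 0 and 9.93 in WT. SCR replicate 3 lay inside the range of G2, and the difference G2/SCR of 0.77 (SE 0.76, 95% confidence interval −0.88 to 2.43, adjusted p = 0.43) was within the spread between replicates. Against WT, G2 was higher by 4.01 (SE 0.85, adjusted p = 0.0018) and SCR by 3.23 (SE 0.85, adjusted p = 0.011). The size of both rests on the pair of WT values, and G2/WT was 2.28 without WT replicate 1 (adjusted p = 0.010), 5.73 without WT replicate 2 and 2.73 with a pseudocount of 5. The call in SCR/WT was lost without SCR replicate 3 (2.71, adjusted p = 0.052), with eBayes without trend (adjusted p = 0.060) and without WT replicate 1 (1.51).

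COL5A3, the alpha 3 chain of type V collagen, had its highest values in WT, the reverse of COL5A1. It lies on chromosome 19 (9959561 to 10010504, minus strand) and had 19.8, 0 and 0 normalized counts in G2, 12.2, 11.3 and 2.27 in SCR, and 29.8 and 26.8 in WT. All libraries of G2 and SCR lay below those of WT, but the G2 mean rests on 1 library. The gene entered the test only through its WT values. The log2 difference was −3.41 in G2/WT (SE 1.27, adjusted p = 0.040), −1.56 in G2/SCR (SE 1.14, adjusted p = 0.28) and −1.85 in SCR/WT (SE 1.27, adjusted p = 0.29). The call in G2/WT was lost in 11 of 18 alternatives, among them leaving out any of G2 replicates 2 and 3, SCR replicates 1 and 2 and both WT replicates (adjusted p of 0.054 to 0.13). Without G2 replicate 1, COL5A3 was also called in G2/SCR, at −3.02 (adjusted p = 0.024).

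COL11A1 and COL24A1 were low in every line, with means over the 8 libraries of 8.77 and 8.19. COL11A1, the alpha 1 chain of type XI collagen, had 17.9, 23.0 and 0 normalized counts in G2, 0, 8.45 and 0 in SCR, and 0 and 20.8 in WT. COL24A1 had 15.1, 19.7 and 0 in G2, 9.19, 5.63 and 4.53 in SCR, and 2.48 and 8.94 in WT. For both genes the lines overlapped, and no difference was tested.

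**Figure D2:**
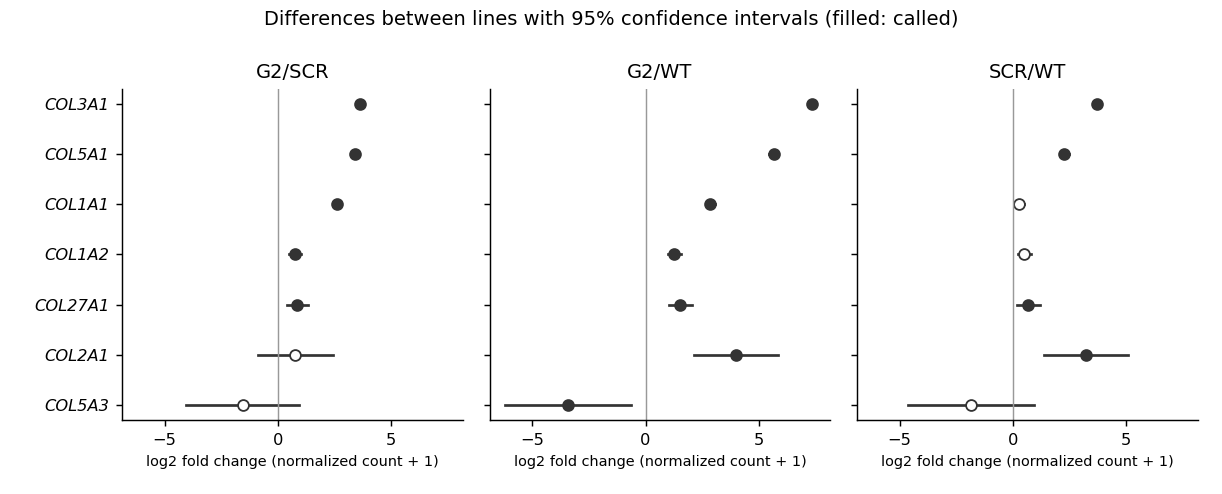
Log2 fold change with its 95% confidence interval (limma, log2 of the normalized count plus 1) for the 7 members tested, in G2/SCR, G2/WT and SCR/WT on the same horizontal scale, where filled points were called. COL3A1 stands at 3.61, 7.33 and 3.72 and COL1A1 at 2.60, 2.86 and 0.26, and the intervals of COL2A1 and COL5A3 are wide.

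COL5A2, the usual partner chain of COL5A1 in type V collagen, could not be read from the table. The gene lies on chromosome 2 (189031898 to 189179761, minus strand), tail to tail with COL3A1, and was listed at 0 in 7 libraries and at 3.72 in WT replicate 1. Most of its neighbours on the same strand were also at or near 0. The ends of the stretch given next were chosen after the values were seen. In a stretch of chromosome 2 from 182833276 to 233566782, 113 of the 123 protein-coding genes of the minus strand (91.9%) had a mean under 10, and 81 were at 0 in every library. They included genes that growing cells use, such as SF3B1 of the spliceosome, the chaperone HSPD1 and NCL (nucleolin), which were named after their values were seen. On the plus strand of the same stretch 27 of 148 genes (18.2%) had a mean under 10, and on the minus strand of the rest of the chromosome 82 of 435 (18.9%). Of the 16 nearest protein-coding neighbours on its own strand, 1 had a mean of at least 100 around COL5A2, against 8 to 14 around each of the other members. The 0 of COL5A2 is therefore given as a listed value only. FN1 (fibronectin) and COL4A4, named in the lists of other collagen genes and fibril-associated proteins, lie in the same stretch.

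**Figure D3:**
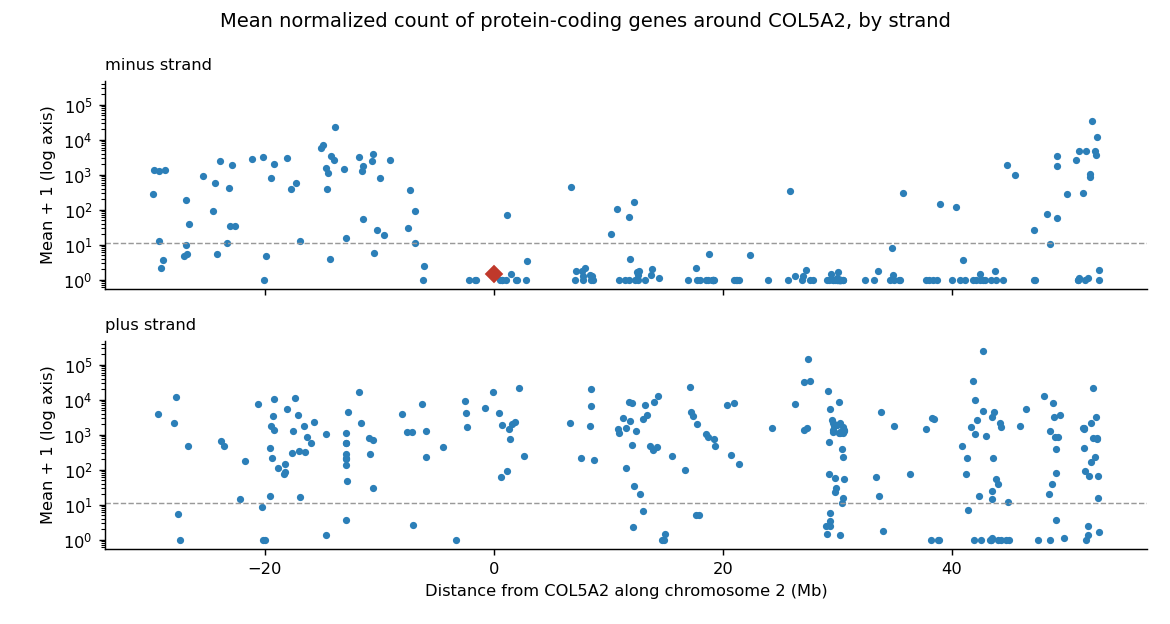
Mean normalized count plus 1 over the 8 libraries (log axis) of protein-coding genes around COL5A2, by distance along chromosome 2 and by strand, with COL5A2 as the diamond and the mean of 10 as the dashed line. From a few megabases before COL5A2 onwards most minus-strand genes lie at or near 0 (113 of 123 in the stretch under a mean of 10), against 27 of 148 on the plus strand.

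The make-up of the family differed between lines. Per kilobase of exon, COL3A1 made up 79.8 ± 1.03% of the summed level in G2 (SD, n = 3), 69.2 ± 0.72% in SCR (n = 3) and 24.6 ± 0.10% in WT (n = 2). COL1A1 held the largest share in WT, at 34.1 ± 0.95%, and 8.70 ± 0.48% in SCR and 4.99 ± 0.46% in G2. The share of COL1A2 fell in the same order, with 19.6 ± 4.74% in WT, 5.85 ± 0.48% in SCR and 0.93 ± 0.07% in G2. COL5A1 had similar shares in every line on this scale, 13.9 ± 0.65% in G2, 14.0 ± 0.44% in SCR and 13.8 ± 1.39% in WT. Per kilobase of the canonical transcript its share was 14.5 ± 0.65%, 14.0 ± 0.41% and 11.9 ± 1.44%, and in normalized counts both WT libraries (15.5 and 17.9%) lay below the G2 and SCR libraries (19.3 to 21.3%). The ratio of COL3A1 to COL1A1 per kilobase was 16.1 in G2, 7.97 in SCR and 0.722 in WT. The shares leave COL5A2 at its listed value and so describe the other 9 members.

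**Figure D4:**
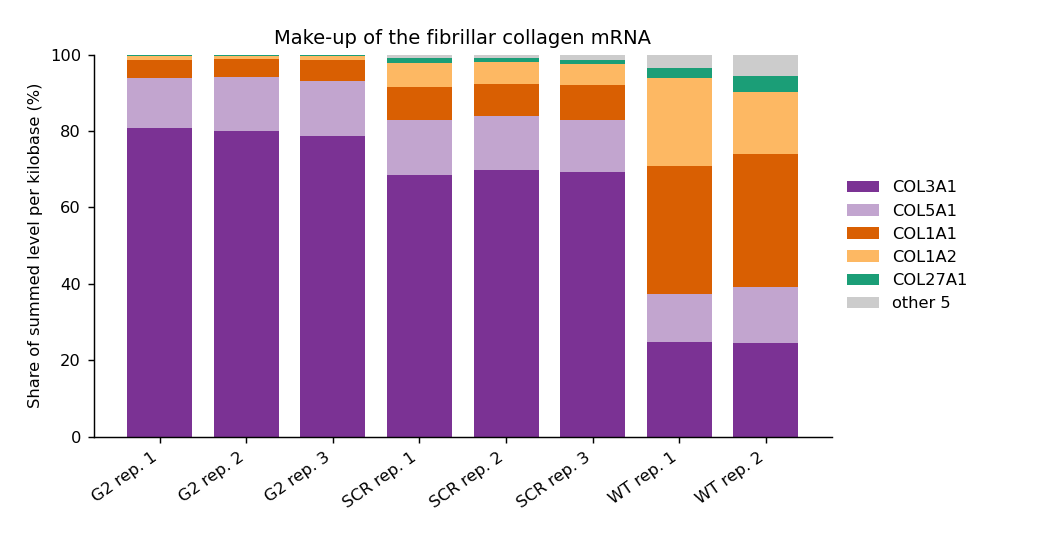
Share (%) of each fibrillar collagen gene in the summed normalized count per kilobase of exon, 1 bar for each library. COL3A1 fills 79.8% of the G2 bars, 69.2% of the SCR bars and 24.6% of the WT bars on average, and COL1A1 and COL1A2 together fill most of the WT bars.

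Genes whose pattern over the 8 libraries was most like that of a member were picked by the smallest root mean square difference of centred log2 values among 12583 genes. For COL1A1 these were ADAM19, a membrane protease (0.128), and IGFBP3, a binding protein of insulin-like growth factors (0.130). For COL3A1 they were FAP, a serine protease of activated fibroblasts (0.294), and HAS2, a hyaluronan synthase (0.342). PLAU, the urokinase (0.168), and NRP1, a coreceptor of semaphorins and VEGF (0.235), came nearest to COL5A1. For COL1A2 the nearest were COTL1 (0.099) and DUSP22 (0.100), and for COL27A1 SORL1 (0.116) and GALNT4 (0.181). COL2A1 (ANGPTL4 at 0.901 and DRAM1 at 0.936) and COL5A3 (SORBS2 at 1.18 and ACTN2 at 1.34) had no close match. The mean of FAP was 468 in G2, 34.7 in SCR and 2.86 in WT, where it was at the floor. FAP was picked for its likeness to COL3A1, so sharing the stepped order of COL3A1 is no separate result.

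The genes next to the 5 members called in G2/SCR were looked up after the members' values were seen. Of their 20 nearest neighbours that averaged at least 100, taken as 2 on each side, 5 were called in G2/SCR (4 higher and 1 lower), 8 in G2/WT (6 higher and 2 lower) and 2 in SCR/WT, where 25%, 28.2% and 13.8% of all genes were called.

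The machinery that folds and modifies procollagen was higher in G2. Of 23 genes 22 were tested, and 18 rose and none fell in G2/SCR, with a log2 median of 1.07. In G2/WT 16 rose and none fell (median 0.80), and in SCR/WT 1 rose and 1 fell (median −0.19). This list, the later lists and the marker lists are to be read against the shares of all genes tested. In G2/SCR 14.3% were called higher and 10.7% lower, in G2/WT 16.9% and 11.3%, and in SCR/WT 8.95% and 4.83%. P4HA1, the catalytic subunit of a prolyl 4-hydroxylase, had 2416 ± 70.7 normalized counts in G2 (SD, n = 3) and 778 ± 52.6 in SCR (n = 3), a difference of 1.64 (adjusted p = 3.6e-09). SERPINH1, the collagen chaperone HSP47, rose from 9499 ± 166 in SCR to 25814 ± 2791 in G2 (1.44, adjusted p = 2.8e-08). P3H1, a prolyl 3-hydroxylase, rose by 1.43 (adjusted p = 2.3e-09). COLGALT2, MIA2, MIA3 and LARP6 did not pass in G2/SCR, and LARP6, which binds the mRNA of type I collagen, passed in G2/WT.

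Of the enzymes that trim and cross-link procollagen, 11 of 13 were tested, and 6 rose and 2 fell in G2/SCR (median 1.09). LOXL2, a lysyl oxidase that cross-links collagen, had 3247 ± 108 normalized counts in G2, 286 ± 23.6 in SCR and 182 ± 23.9 in WT, and rose by 3.50 in G2/SCR (adjusted p = 7.2e-11). The N-proteinases moved apart. ADAMTS3 rose by 2.61 (adjusted p = 9.2e-08), from 336 ± 24.5 in SCR to 2055 ± 114 in G2. ADAMTS14 fell by 2.65 on the log2 scale (adjusted p = 6.0e-07), from 242 ± 25.9 to 38.5 ± 9.83. LOX, which founded the lysyl oxidase family, also fell in both G2 comparisons. In G2/WT 5 genes of this list rose and 2 fell (median 0.39), and in SCR/WT 3 rose and 2 fell (median −0.17).

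Proteins that sit on the fibril had the largest median of the 7 lists in G2/SCR. Of 14 genes 8 were tested, and 6 rose and 1 (DPT) fell in G2/SCR, with a median of 2.62, and the same counts held in G2/WT (fitted median 3.55, and 2.28 with THBS2 and BGN, which were at the floor in WT, set to their lower bounds). In SCR/WT 2 rose and 1 fell (median 0.30). DCN (decorin), a proteoglycan that binds type I fibrils, had 37183 ± 812 normalized counts in G2, 1051 ± 86.9 in SCR and 166 ± 17.6 in WT, and rose by 5.15 in G2/SCR (adjusted p = 9.6e-13). SPARC, a collagen-binding glycoprotein, rose by 2.77 in G2/SCR (adjusted p = 3.3e-12), from 4023 ± 177 to 27494 ± 244. THBS2 (thrombospondin 2) had 1340 ± 56.9 in G2 but no SCR or WT library above the floor. Against 9 counts per library, it was at least 165-fold higher than SCR. The bound against WT was at least 133-fold higher. PRELP, OGN and ASPN were at 0 in every library.

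Receptors of collagen were higher in G2 as well. Of 10 genes 8 were tested, and 7 rose and none fell in G2/SCR (median 1.40) and in G2/WT (median 1.66), while in SCR/WT 1 rose and 1 fell (median −0.10). ITGA2, the collagen-binding integrin subunit alpha 2, rose from 416 ± 14.3 in SCR to 7023 ± 248 in G2 (4.07, adjusted p = 1.4e-11). MRC2, which takes up collagen for breakdown, rose by 2.54 (adjusted p = 6.1e-11), and DDR1, a collagen-binding receptor tyrosine kinase, by 1.53 (adjusted p = 3.8e-08). Of the collagenases and gelatinases 4 of 7 were tested. MMP2 fell by 0.60 in G2/SCR (adjusted p = 6.0e-07), from 43748 ± 1322 to 28880 ± 635, and MMP14 and CTSK did not pass (median 0.32). MMP9 was called as higher (adjusted p = 0.048), with SCR at the floor. None of the 4 met both thresholds in G2/WT (median 0.14) or SCR/WT (median −0.17), where MMP2 differed by −0.34 (adjusted p = 1.9e-04) and 0.26 (adjusted p = 0.0027), short of the fold.

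Of 28 factors known to act on fibrillar collagen promoters 24 were tested, and 10 rose and none fell in G2/SCR (median 0.49). In G2/WT 10 rose and 1 fell (median 0.36), and in SCR/WT 4 rose and 1 fell (median −0.02). Over all genes tested, 14.3% were called higher in G2/SCR, 16.9% in G2/WT and 8.95% in SCR/WT. Of the factors, 9 were called in both G2 comparisons. TGFB1, the growth factor best known to raise collagen synthesis, had 2357 ± 143 normalized counts in G2, 130 ± 13.8 in SCR and 210 ± 29.9 in WT (G2/SCR 4.17, adjusted p = 6.7e-11). Its family members TGFB2 (3.64) and TGFB3 (1.37), the receptor TGFBR2 (2.03) and the signal carrier SMAD3 (1.25) were also higher in G2 than in SCR. SOX9, the regulator of COL2A1 in cartilage, had 3302 ± 167 in G2, 301 ± 29.5 in SCR and 98.7 ± 20.2 in WT (G2/SCR 3.46, adjusted p = 3.4e-10), and its partner SOX6 differed by 2.22. ETS1 differed by 1.61, and FLI1, a repressor of COL1A2 in fibroblasts, by 2.81, with 127 ± 20.4 in G2, 17.9 ± 6.40 in SCR and 0 in both WT libraries. CCN2 was listed at 0 in all libraries.

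Among the 34 other collagen genes 21 were tested, and 8 rose and 3 fell in G2/SCR (median 0.72), 11 rose and 1 fell in G2/WT (fitted median 0.95, and 0.73 with genes at the floor in WT set to their bounds), and 7 rose and 2 fell in SCR/WT (median 0.43). COL6A2, a chain of the beaded filaments of type VI collagen, rose from 2977 ± 161 in SCR to 8352 ± 1101 in G2 (1.48, adjusted p = 1.2e-07). COL4A1, a chain of basement membranes, rose by 1.16 (adjusted p = 5.3e-08) and COL18A1, the source of endostatin, by 1.17 (adjusted p = 9.6e-07). In the pathway lists, setting genes at the floor of a control line to their lower bound left each G2/SCR median as given.

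**Figure D5:**
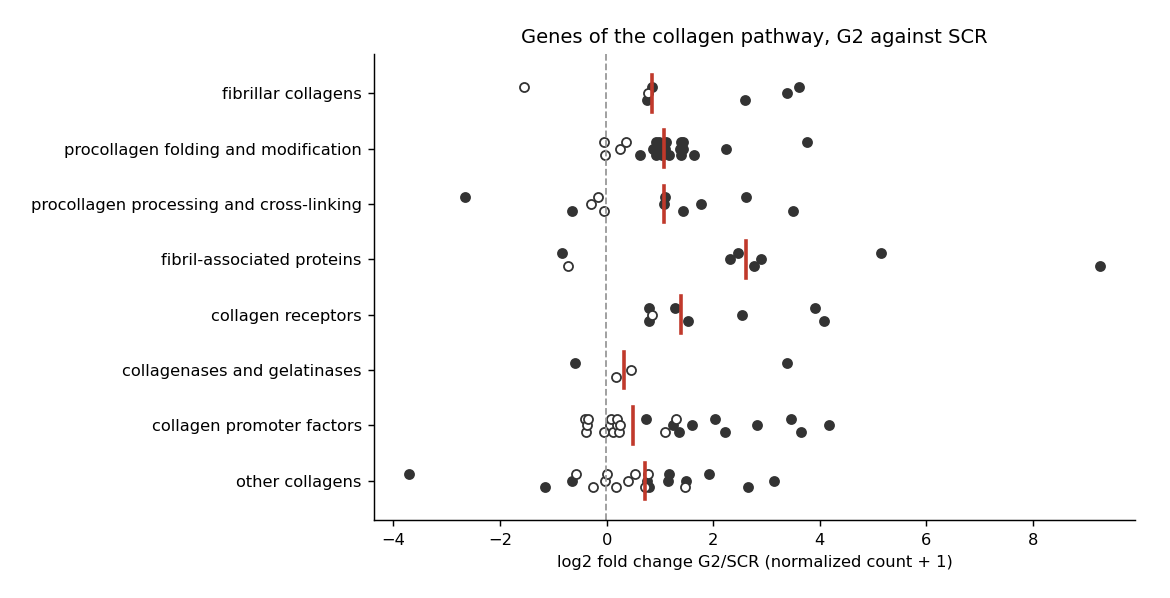
Log2 fold change G2/SCR of each tested gene in the fibrillar collagens and in 7 lists of the collagen pathway, where filled points were called, red bars are list medians and the dashed line is the median of all genes. The folding and receptor lists lie mostly to the right (medians 1.07 and 1.40), and the point at 9.26 is THBS2, which was at the floor in SCR.

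Markers of some cell types also differed between G2 and SCR, and their part in these results was not tested. In SCR/WT, where the collagen sum was higher in SCR, the list medians differed in sign. They were −0.25 for adrenergic, 0.53 for mesenchymal NB, −0.27 for fibroblast, 0.17 for Schwann cell and −0.42 for chondrocyte markers. Of 12 adrenergic neuroblast markers, 10 were called lower and none higher in G2/SCR, and their summed level was 108546 to 118204 in G2, 212524 to 227172 in SCR and 242265 to 256586 in WT. GATA3 went the other way, with 18206 ± 866 in G2 against 14129 ± 617 in SCR (0.37, adjusted p = 1.4e-04), short of the fold. TH, the first enzyme of catecholamine synthesis, was at the floor in G2 (1.88 ± 3.26) and at 14.0 ± 11.1 in SCR and 16.9 ± 4.22 in WT. Of 10 mesenchymal NB markers 9 were tested and 8 were higher in G2/SCR, with a summed level of 238368 to 243570 in G2, 111279 to 118506 in SCR and 81336 to 93171 in WT. VIM (vimentin) alone held 211955 to 216529 of the G2 sums, and TWIST1, the next largest, was lower in G2 than in SCR (21105 ± 485 against 27740 ± 831, a difference of −0.39, adjusted p = 7.3e-05), short of the fold. PRRX1 was at 0 in every SCR and WT library, and TWIST2 was near 0 throughout. Of 8 fibroblast markers 7 were tested, with 3 higher (THY1, FAP and LUM) and 1 lower (DPT) in G2/SCR, PDPN at 0 in every library and PDGFRA at 1439 ± 85.7 in G2 and 1454 ± 108 in SCR. Their sums ran from 48983 to 49684 in G2, 23594 to 23855 in SCR and 25705 to 27419 in WT.

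Of 7 chondrocyte markers 5 were tested and 3 were higher in G2/SCR (SOX9, MATN3 and COMP), with ACAN and CNMD at 0 in every library and sums of 3759 to 4063 in G2, 622 to 735 in SCR and 446 to 540 in WT. Of 7 Schwann cell markers 3 were tested, with 1 higher and 1 lower, SOX10 at 0 in every library, and sums of 170 to 267 in G2, 387 to 595 in SCR and 428 to 463 in WT. Endothelial markers summed to at most 63.0 in any library with PECAM1 at 0. Of 5 leukocyte markers CD68, which other cells also express, was higher in G2/SCR and made up most of the sum of 687 to 761 in G2, against 98 to 132 in SCR and 115 to 161 in WT, while CD3E was at 0 and PTPRC at or near 0. SOX9, TWIST1, LUM, DPT, COMP and COL9A1 stand in both a marker list and a pathway list.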

How the data were processed

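RNA-seq of polyadenylated RNA covered 8 libraries of SH-SY5Y cells (G2, SCR and WT), grouped by their labels. The authors aligned stranded paired reads of 75 bases with STAR (hg38), assigned them to FAST DB genes with featureCounts (Subread 1.5.0) and normalized the resulting counts with DESeq2. The deposited signal is the normalized count per gene and library, neither log-transformed nor scaled to length. The strand setting and the treatment of multiply mapping reads are not given in the sources used here. Values were whole multiples of 1 step per library, within 0.01 for 100% of values, which gave recovered counts. The check could not be made for WT replicate 2, whose step lies near 1, so count models (edgeR 4.0.16, DESeq2 1.42.0) served only as alternatives for G2/SCR. Floors cover counting error only, and confidence intervals are those of the limma fit and cover the spread between libraries.

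Since the values are normalized, limma 3.58.1 in R 4.3.3 was fitted to log2(normalized count + 1) with a mean per line and eBayes with trend. The added 1 lowers fold changes of low genes, but where a library stood at 0 the fitted fold could exceed the ratio of means. For COL5A3 in G2/SCR the log2 difference was −1.56, while the ratio of means was 0.77. For COL2A1 in G2/WT the fitted fold was 16.1 and the ratio of means 10.8. Levels per kilobase used GENCODE exons or canonical transcripts. Alternatives covered the p rule, fold, pseudocount, filter, scaling, trend, replicate block and each library left out. The chromosome 2 stretch, the division of counts by 3 and the canonical lengths were added after seeing the data. The members and lists were chosen with earlier results of these data known. Named were all members, PRPF40B, the 3 largest called changes per list with a mean of at least 100, promoter factors called in both G2 comparisons, and the 2 genes most like each member. Other genes were named after their values were seen.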

Additional observations from a re-analysis of the deposited data

How the results depend on the processing

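Under the alternatives, members called in G2/SCR stayed at 5 except at a fold of at least 2, which left 3, and ranged from 5 to 6 with a library left out. In G2/WT they ranged from 5 to 7, and from 6 to 7 with a library left out. In SCR/WT they ranged from 2 (eBayes without trend) to 5, and from 3 to 4 with a library left out. No log2 fold change of a tested member changed its sign under any alternative. COL3A1, COL5A1 and COL1A1 held their calls in G2/SCR and G2/WT under all alternatives.

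The summed level in G2 over SCR was 10.6 per kilobase of exon and 9.51 scaled to the same total. For G2 over WT it was 49.9 and 46.4, and for SCR over WT 4.70 and 4.88. The ratio of COL1A1 to COL1A2 per kilobase of exon and of canonical transcript was 5.35 and 3.82 in G2 and 1.49 and 1.07 in SCR, the cause being the lengths themselves. Scaling to the same total moved the median of all genes to −0.10 in G2/SCR, 0.19 in G2/WT and 0.29 in SCR/WT, and the share of calls that were higher from 57.3% to 48.2%, 59.8% to 76.5% and 64.9% to 91.4%. Over all genes, 4729, 5343 and 2612 were called in G2/SCR, G2/WT and SCR/WT, 2780, 2997 and 1235 at a fold of at least 2, and 3086, 3627 and 1702 with a mean of at least 100.

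Correlations between the deviations of same-numbered libraries ran from −0.17 to 0.15. They cannot decide whether the numbers pair the samples, because each line holds so few libraries. Deviations of the WT libraries mirror each other, so their correlations differ only in sign (−0.17 and 0.17 with G2 replicate 1). The numbers in the library names, which match the libraries in part differently, were not used for this check. With a replicate block 5, 6 and 3 members were called, and 4694, 5256 and 2454 genes in all. COL11A1, COL24A1, COL2A1 and COL5A3 had values near the floor in at least 1 line, and their differences are to be read with this limit.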
